A study of Mus musculus with 12 samples.

Results

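The genes described here encode 9 proteins of the tight junction: the claudins Cldn1, Cldn4, Cldn7, Cldn8, Cldn12 and Cldn23, occludin (Ocln), junctional adhesion molecule A (F11r) and the scaffold protein zonula occludens 1 (Tjp1). They were taken as every array probe whose gene name in the scanner files is one of these symbols, which gave 12 of 41174 probes and 9 of the 20741 genes tested. Cldn1, Ocln and Tjp1 have 2 probes each. RNA of the entire forestomach was taken from adult C57BL/6J mice, all wild type, in 3 groups of 4 samples. One group was given 15% alcohol for 40 weeks, and the labels do not mention supersaccharin for it. The second was given 20% alcohol in supersaccharin for 4 weeks, and the control mice had supersaccharin with 0% alcohol. The 3 groups carry different cohort codes, and no control cohort of the 40-week mice is among the samples. Each sample was hybridised in Cy5 to a two-colour Agilent array against Universal Mouse Reference RNA, a commercial RNA pool, in Cy3, so the level of a gene is the log2 ratio of forestomach to reference. Nothing in the labels says that replicates came from separate animals, so the tests weigh differences only against the scatter of these samples, part of which may be technical.

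Tight junctions seal the space between neighbouring epithelial cells near their apical side. Claudins form the strands that close or selectively open this space, occludin and the junctional adhesion molecules sit in the same membrane zone, and Tjp1 ties them to the actin cytoskeleton. The forestomach of the mouse is lined by a keratinised stratified squamous epithelium, in which tight junctions form in the upper living layers. The adjoining glandular stomach has a simple columnar epithelium with tight junctions between all of its lining cells.

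Every value below rests on 60-base probes, and their first 30 bases are shown because the 2 probes of a gene did not always give the same result. The positions are those of the scanner files on build mm9, and where each lies within its transcript (coding part or UTR) was not assigned here. For the sealing and pore claudins the probes lie at chr16:26359010-26359069 and chr16:26357372-26357431 (Cldn1, minus strand), chr5:135421347-135421406 (Cldn4, minus), chr11:69780780-69781089 (Cldn7, plus), chr16:88561135-88561194 (Cldn8, minus), chr5:5505502-5505561 (Cldn12, minus) and chr8:36888151-36888210 (Cldn23, minus). The others lie at chr13:101268114-101268173 and chr13:101309849-101311042 (Ocln, minus), chr7:72441703-72441762 and chr7:72458154-72458213 (Tjp1, minus) and chr1:173393848-173393907 (F11r, plus). The Cldn7 probe and the second Ocln probe map over 310 and 1194 bases, so they cross an intron. No letter is in capitals, since no part of a probe is singled out.
Cldn1, brighter probe: aggattgacattaacgccttagactgttga
Cldn1, dimmer probe: ctctctcaaatgaggagttcctaaagctta
Cldn4: accctactaatgaatttctgtagagtggat
Cldn7: taaccccttgacgcccatgaacgttaagta
Cldn8: aaagatgttgtccatatgtatttcaactcc
Cldn12: atgagaatctttcggcattatcatctatag
Cldn23: ttaaaacgtccctgaacgtacagtattcta
Ocln, brighter probe: gaaactgctaaggcagttttggctaagtct
Ocln, dimmer probe: ccttacagacctgatgaattcaaacccaat
Tjp1, brighter probe: tttcgctgtgtattactaagtttttatgag
Tjp1, dimmer probe: agccaaatctagcctatgaaccccaacttc
F11r: attagtcactcttcatttggctggaactac

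Several facts of the arrays touch these genes. All 4-week arrays lie on 1 slide and all control arrays on another, so slide and group cannot be told apart. Median Cy5 signal over local background was 42.4 to 112 on the 4-week arrays and 112 to 151 on the control arrays, and no spot was saturated. For the 40-week arrays only the deposited log2 ratios were used here. Their log2 scale was assumed, and the fold changes at 40 weeks rest on it. These columns are narrower, with an SD over probes of 1.02 to 1.08 at 40 weeks, 1.48 to 1.58 at 4 weeks and 1.52 to 1.73 in controls. The 40-week comparisons are therefore given as deposited and again, though not for every gene, after every array was scaled to the same median absolute log2 ratio. Squamous markers were present throughout: Cy5 was well above background for 12 or 13 of the 13 measured markers on each of the 8 arrays with scanner files. On 3 arrays, called the organ arrays below, markers of neighbouring organs were high against the rest of their group. Of 15 glandular stomach genes, 12 in 4-week replicate 2 and 13 in control replicate 4 exceeded the rest of their group by over 1 (log2). Of 14 pancreas genes, 6 in 4-week replicate 2 and 14 in control replicate 3 did so. This rule cannot flag transcripts that a whole group shares. The median ratio of the glandular stomach genes was 0.89 to 1.42 at 40 weeks. It was 0.31, 0.23 and 1.24 in control replicates 1, 2 and 3, and 0.97, 0.67 and 0.39 in 4-week replicates 1, 3 and 4. The pancreas median was 2.19 in control replicate 1, which was not flagged. The ratios of Eif2s3y and Ddx3y, which lie on the Y chromosome, were -6.28 to -4.02 in 40-week replicates 3 and 4, against 0.49 to 3.17 in all other samples, which the labels do not explain since they give no sex.

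After 40 weeks of 15% alcohol, 3 of the 9 genes were called lower than in controls in the deposited ratios (limma, adjusted p under 0.05), 1 was called higher and 5 were not called. Cldn23, Cldn1 and Ocln were lower by 2.94, 2.02 and 1.80 on the log2 scale as deposited, and Cldn12 was 0.47 higher. The groups did not overlap for any of these 4 genes. Over all genes 42.5% were called in this comparison, 18.6% higher and 23.9% lower, and 42.3% had groups that did not overlap, so 4 of 9 is near the background. As deposited, the median change of the 9 genes was -0.76, beside -0.09 over all genes. Scaled, their changes ran from -0.75 for Cldn7 to 1.09 for Tjp1, with Cldn8 at -0.07, beside a median of -0.03 over all genes. After scaling, 2 of the 9 genes were called, beside 38.2% of all genes: Cldn23 was still lower and Tjp1 became higher. The calls of Cldn1, Ocln and Cldn12 were lost. Quantile normalisation, which gives all arrays the same distribution, left the same 2 members called, beside 38.0% of all genes.

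Cldn23, a claudin of surface and upper epithelial layers, had the largest change of the 9 as deposited. Its log2 ratios were 3.84, 4.23, 3.89 and 4.00 at 40 weeks, 6.21, 5.85, 6.63 and 6.57 at 4 weeks, and 6.24, 6.95, 7.57 and 6.95 in controls. All 40-week samples lay below every other sample, and the 4-week and control samples overlapped. The fall at 40 weeks was 2.94 ± 0.26 (log2 ± SE, n = 4 against 4; limma adjusted p = 5.48e-06), or 7.67-fold. After scaling, the group means were 5.32 ± 0.35 at 40 weeks and 6.03 ± 0.39 in controls (SD, n = 4 each), a difference of -0.71 ± 0.23 (limma adjusted p = 0.0310). Scaled and without the 3 organ arrays it was -0.70 (limma adjusted p = 0.0964), so that the call was lost. In that setting Tjp1 was the 1 member called, beside 25.6% of all genes, and in the contrast with the 4-week samples 0 members were called by limma (2 at an unadjusted p under 0.05), beside 37.8%.

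Cldn1, the claudin on which the water barrier of mouse skin depends, had ratios of 3.09, 3.49, 3.18 and 3.37 at 40 weeks, 5.24, 4.72, 5.21 and 5.46 at 4 weeks, and 5.13, 5.29, 5.84 and 4.93 in controls. The 40-week samples again lay below all 8 others. As deposited the fall was 2.02 ± 0.21 (limma adjusted p = 1.85e-05), or 4.05-fold, and the dimmer probe fell by 1.83 ± 0.24 (limma adjusted p = 0.000126 over all probes). After scaling, the means were 4.38 ± 0.31 at 40 weeks and 4.61 ± 0.25 in controls (SD, n = 4 each). The difference of -0.24 ± 0.20 no longer passed the test (limma adjusted p = 0.383), and the dimmer probe gave -0.22 (adjusted p = 0.521).

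Ocln, occludin, had ratios of 3.32, 3.43, 3.16 and 3.06 at 40 weeks, 4.89, 4.41, 5.0 and 4.71 at 4 weeks, and 4.71, 5.17, 5.10 and 5.20 in controls with its brighter probe. The 40-week samples were the lowest, without overlap. The fall of 1.80 ± 0.16 (limma adjusted p = 6.53e-06), or 3.49-fold, was -0.08 ± 0.21 after scaling (adjusted p = 0.792). The dimmer probe behaved otherwise. Its ratios were 0.70, 0.50, 0.47 and 0.53 at 40 weeks, 2.46, 2.71, 2.11 and 2.79 at 4 weeks, and 2.23, 2.30, 3.44 and 2.81 in controls, and it fell by 2.14 ± 0.25 as deposited (limma adjusted p = 4.57e-05). After scaling it still fell by 1.60 ± 0.18 (adjusted p = 8.98e-05). Its reference channel was well above background on 0 of the 8 arrays with scanner files, so its ratio rests on a Cy3 signal that was not measured above background.

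Cldn12, a claudin that lacks the tail motif by which most claudins bind scaffold proteins, was the member called higher at 40 weeks. Its ratios were -0.22, -0.41, -0.29 and -0.30 at 40 weeks, -0.80, -0.28, -0.75 and -0.47 at 4 weeks, and -0.97, -0.73, -0.84 and -0.54 in controls. The 40-week samples lay above every control, and 4-week replicate 2 lay among them. The rise of 0.47 ± 0.14 (limma adjusted p = 0.0194) was +0.26 ± 0.13 after scaling (adjusted p = 0.142) and 0.46 without 40-week replicates 3 and 4, whose Y-linked genes were low (adjusted p = 0.113), so that neither passed the test. Without 40-week replicate 1 it was 0.44 (adjusted p = 0.0532).

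**Figure D1:**
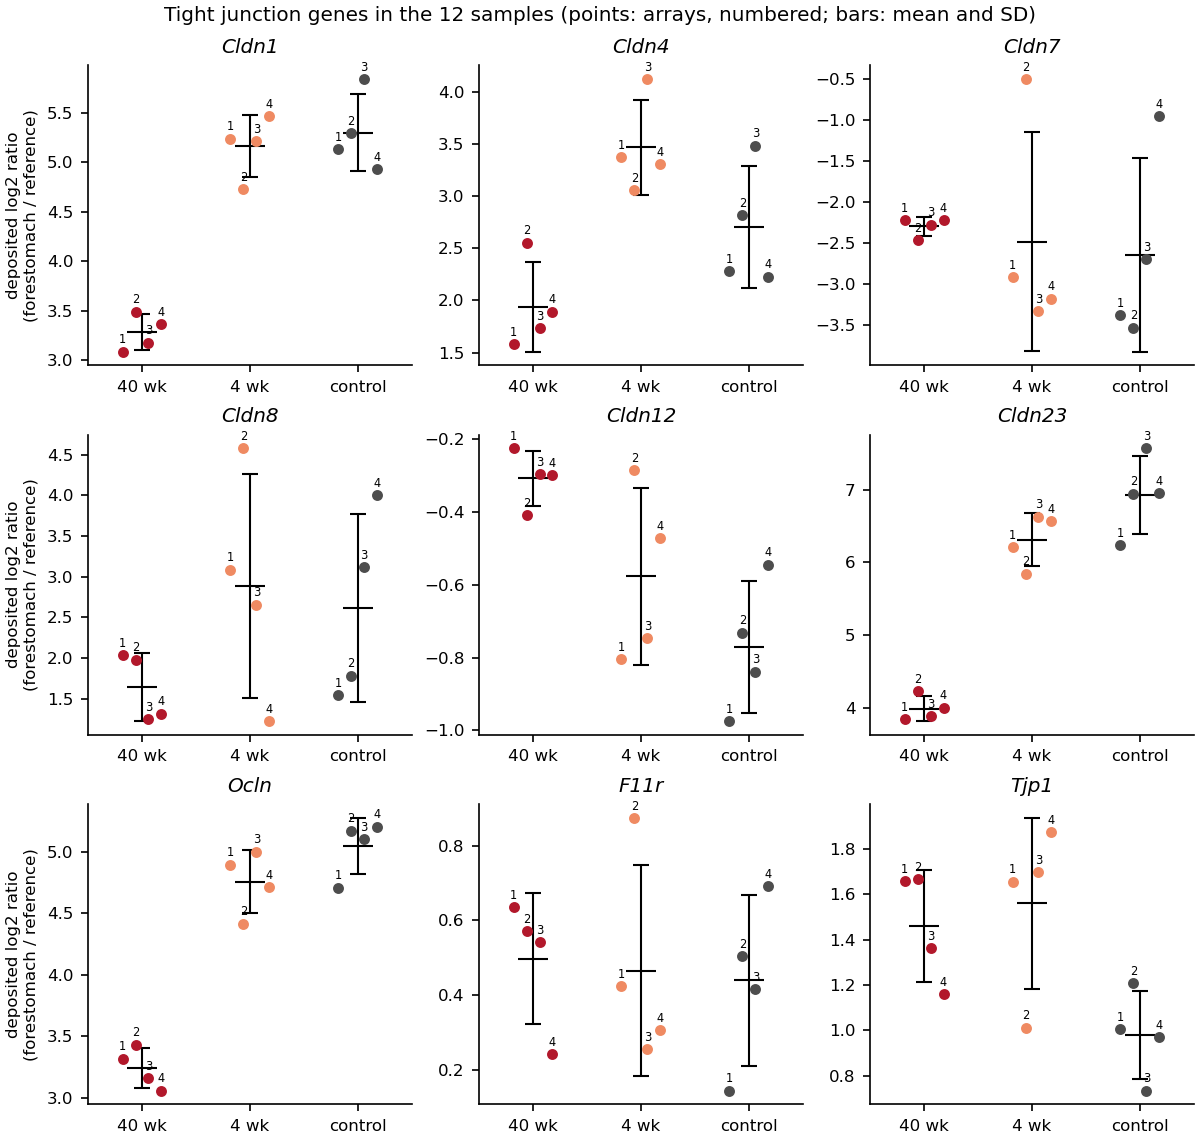
Deposited log2 ratio of forestomach to reference RNA (vertical axis) for each of the 9 genes in the 40-week, 4-week and control samples; points are arrays numbered by replicate, and bars are the mean and SD of 4. The 40-week points of Cldn1, Cldn23 and Ocln sit below all others, and 4-week replicate 2 and control replicate 4 are the highest of their groups for Cldn7 and Cldn8.

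The remaining 5 genes were not called at 40 weeks as deposited. Cldn4, a claudin that limits passage of sodium, had 1.58, 2.55, 1.73 and 1.89 at 40 weeks, 3.37, 3.06, 4.12 and 3.31 at 4 weeks, and 2.28, 2.81, 3.48 and 2.23 in controls. The 40-week samples overlapped the controls through replicate 2 but lay below all 4-week samples. The change against controls was -0.76 ± 0.32 (limma adjusted p = 0.0724). It was called without 40-week replicate 2 (-0.97, limma adjusted p = 0.0359) and without control replicate 4 (-0.92, adjusted p = 0.0488), and after scaling it was 0.25 with the opposite sign (adjusted p = 0.531). For Cldn8, a barrier claudin of kidney and colon, the difference was -0.97 ± 0.66 (limma adjusted p = 0.264), with a 95% interval of -2.42 to 0.48. Scaled, it was -0.07 ± 0.57 (limma adjusted p = 0.938 over all probes).

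F11r, an immunoglobulin-type adhesion protein of epithelia and blood cells, had 0.64, 0.57, 0.54 and 0.24 at 40 weeks, 0.42, 0.87, 0.25 and 0.31 at 4 weeks, and 0.14, 0.50, 0.42 and 0.69 in controls. The 3 groups overlapped, and F11r was the member that varied least over the 12 samples. Its difference at 40 weeks against controls was 0.06 ± 0.17 (limma adjusted p = 0.800), with an interval of -0.31 to 0.42. Scaled, it was 0.28 ± 0.17 (limma adjusted p = 0.196 over all probes).

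Tjp1 gave opposite results from its 2 probes. The brighter probe had 1.66, 1.67, 1.36 and 1.16 at 40 weeks, 1.66, 1.01, 1.70 and 1.87 at 4 weeks, and 1.01, 1.21, 0.74 and 0.97 in controls. The dimmer probe had 0.61, 0.74, 0.56 and 0.98 at 40 weeks, 1.22, 1.07, 1.43 and 1.48 at 4 weeks, and 2.54, 1.85, 1.12 and 1.48 in controls. With the brighter probe only 40-week replicate 4 lay below a control (replicate 2), while with the dimmer probe all 40-week samples lay below all controls. Against controls the difference was 0.48 ± 0.19 with the brighter probe (limma adjusted p = 0.0650) and the dimmer probe fell by 1.03 ± 0.25 (limma adjusted p = 0.00677 over all probes). After scaling, the brighter probe was 1.09 ± 0.20 higher (adjusted p = 0.00174) and the dimmer one gave -0.58 (adjusted p = 0.0764), so the direction of Tjp1 at 40 weeks depends on the probe and its call on the scale. Both probes lie on the minus strand of chromosome 7, and which transcripts each one detects was not tested.

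**Figure D2:**
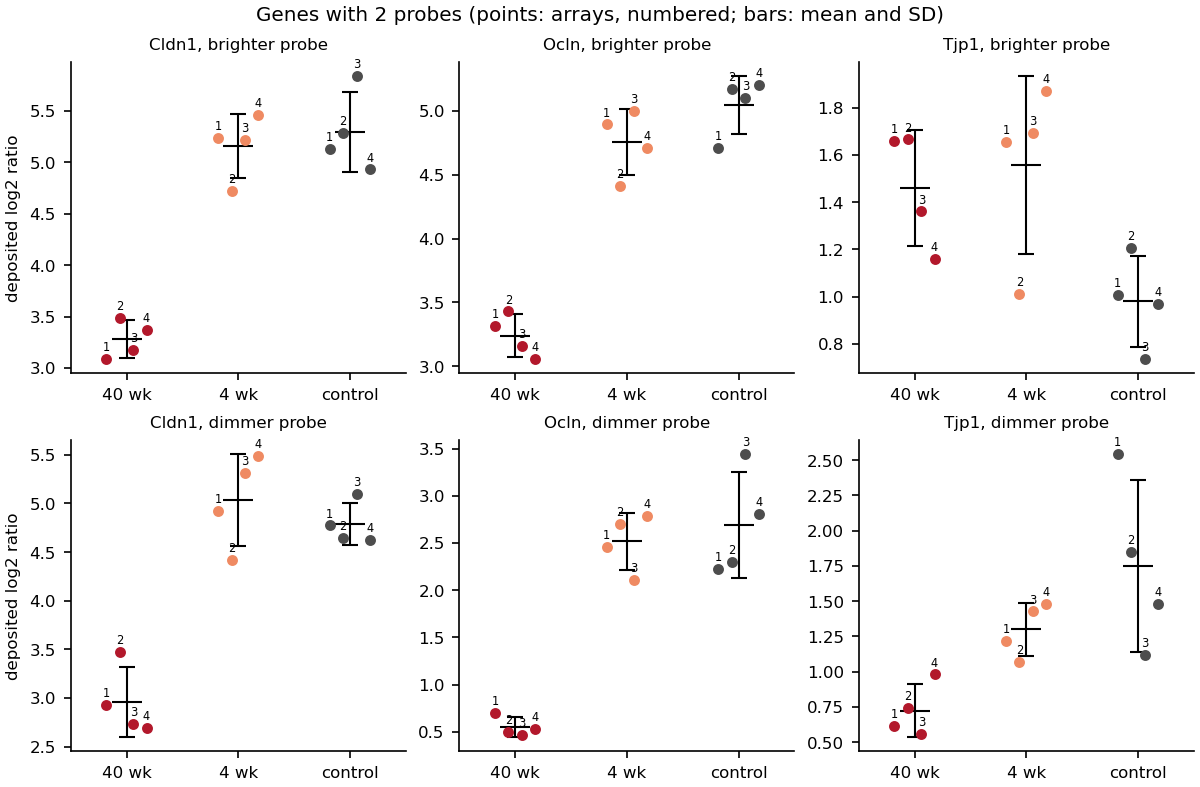
Deposited log2 ratio (vertical axis) of the 2 probes of Cldn1, Ocln and Tjp1 in the 40-week, 4-week and control samples; points are numbered arrays, and bars are the mean and SD of 4. Both probes of Cldn1 and of Ocln are lowest at 40 weeks, while the Tjp1 probes go opposite ways against control.

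The alcohol groups differ in dose, duration and cohort at once. In their comparison, which shares the 40-week samples with the one above, 4 of the 9 genes were called lower as deposited and none higher, beside 41.5% of all genes called (18.3% higher, 23.2% lower). Relative to 4 weeks, Cldn23 fell by 2.33 ± 0.26 (limma adjusted p = 6.56e-05), Cldn1 by 1.88 ± 0.21 (adjusted p = 6.86e-05), Cldn4 by 1.53 ± 0.32 (adjusted p = 0.00277) and Ocln by 1.52 ± 0.16 (adjusted p = 5.47e-05). The 40-week and 4-week samples did not overlap for any of these 4, as was so for 45.3% of all genes. The other members were not called, at -1.24 ± 0.66 for Cldn8 (limma adjusted p = 0.155), 0.27 ± 0.14 for Cldn12 (adjusted p = 0.143), 0.18 ± 0.64 for Cldn7 (adjusted p = 0.839), -0.10 ± 0.19 for Tjp1 (adjusted p = 0.717) and 0.03 ± 0.17 for F11r (adjusted p = 0.891). After scaling none of the 4 was called. Cldn23 then gave -0.12 (limma adjusted p = 0.716), Cldn1 -0.07 (adjusted p = 0.806), Cldn4 -0.39 (adjusted p = 0.317) and Ocln 0.23 (adjusted p = 0.422). Tjp1 alone was called, 0.61 higher with its brighter probe (adjusted p = 0.0332), beside 40.8% of all genes. The dimmer Tjp1 probe gave -0.58 ± 0.25 in this comparison as deposited (limma adjusted p = 0.0840 over all probes). After quantile normalisation, Cldn23 at -0.77 (adjusted p = 0.00290) and Cldn1 at -0.54 (adjusted p = 0.0148) were called instead, beside 40.1% of all genes.

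Markers of the squamous lining were lower as deposited too. Of 13 measured squamous markers, 12 were called lower at 40 weeks than in controls as deposited, with a median change of -1.89, and 7 lower and 2 higher after scaling, with a median of -0.64. The shares of all genes called, in either direction, were 42.5% as deposited and 38.2% scaled. Against the 4-week samples 10 were called lower as deposited (median -0.86), beside 41.5% of all genes, and 3 higher and 2 lower after scaling (median 0.42), beside 40.8%. At 4 weeks against controls, where no member was called, 3 of the 13 were called lower (median -0.87), beside 1.10% of all genes. The median log2 ratio of the list ran from 2.19 to 2.80 over the 40-week samples, 2.81 to 3.71 over the 4-week samples and 4.12 to 4.50 over the controls. Trp63, the transcription factor that defines stratified epithelia, had ratios of 5.29 to 5.85 at 40 weeks, 6.34 to 6.88 at 4 weeks and 6.40 to 7.42 in controls. Against controls at 40 weeks, 9 of 9 smooth muscle markers were called lower as deposited (median -1.78), and 2 lower and 1 higher after scaling (median -0.23). Of 10 endothelial markers, 8 were called lower and 1 higher as deposited (median -1.63), and 3 lower and 4 higher after scaling (median 0.01). The part of these markers in the result was not tested, and in entire tissue fewer cells of a type and less RNA per cell cannot be told apart.

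**Figure D3:**
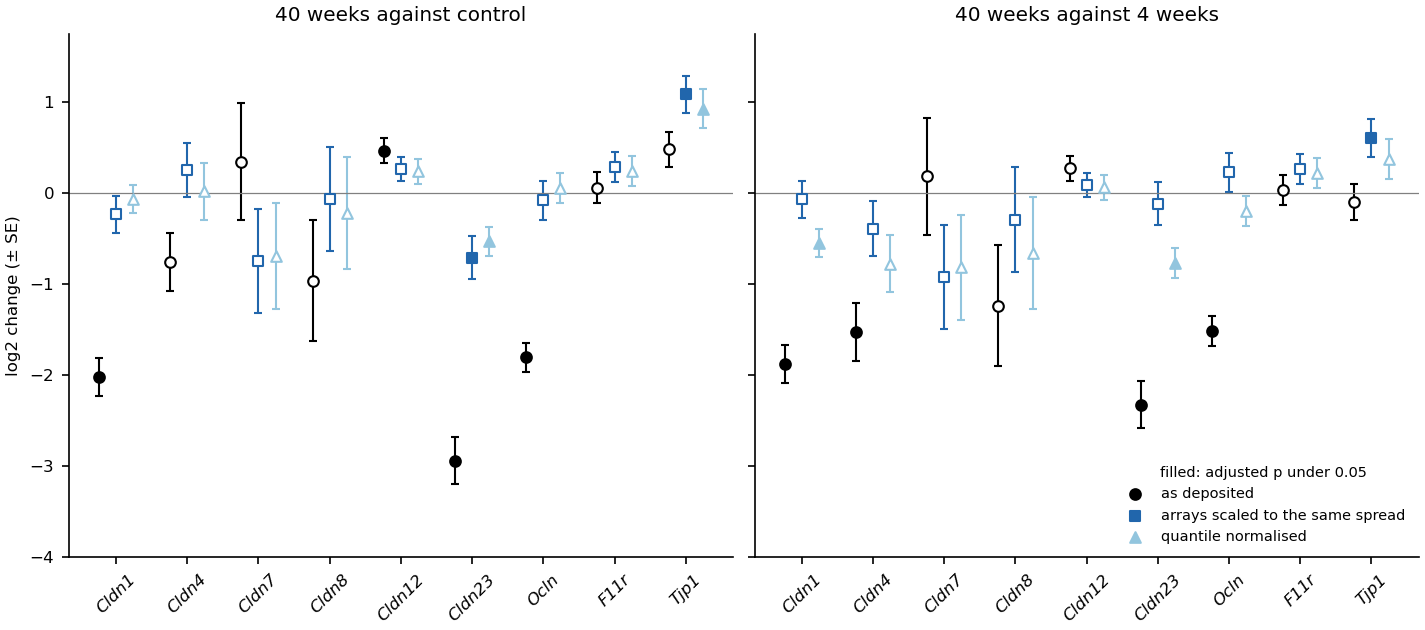
Log2 change (vertical axis, ± SE) of the 9 genes in the 40-week samples against controls (left) and against 4-week samples (right), as deposited, after scaling of arrays to the same spread, and after quantile normalisation; filled symbols have a limma adjusted p under 0.05. Cldn1 and Ocln lie near 0 against control once arrays share 1 spread, Cldn23 stays below 0 and Tjp1 lies above it.

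After 4 weeks of 20% alcohol none of the 9 genes was called against controls, and no gene's groups failed to overlap. Over all genes 1.10% were called, 0.275% higher and 0.824% lower, and 11.8% had groups without overlap. The median change of the 9 genes was 0.06 in the scanner ratios, beside -0.02 over all genes. With limma, 1 of the 9 had an unadjusted p under 0.05 in the scanner ratios, 3 in the deposited values of the same arrays and 4 with the scanner's processed signals. Cldn23 was at -0.92 ± 0.21 (limma adjusted p = 0.0574) and Cldn4 at 0.81 ± 0.31 (adjusted p = 0.182) with the processed signals, against -0.18 and 0.34 in the scanner ratios. The gene in the scanner ratios was Tjp1, whose brighter probe had scanner ratios of 1.59, 0.98, 1.63 and 1.77 at 4 weeks and 0.98, 1.17, 0.71 and 0.93 in controls. All 4-week replicates but the second lay above every control. The difference was 0.54 ± 0.19 (limma adjusted p = 0.185), and that of the dimmer probe was -0.42 ± 0.22 (adjusted p = 0.345).

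The 95% intervals bound what these 4 against 4 arrays leave possible. They ran from -0.66 to 0.48 for Cldn1 (change -0.09), from -0.65 to 0.36 for Ocln (-0.14), from -0.93 to 0.57 for Cldn23 (-0.18) and from -0.38 to 1.05 for Cldn4 (0.34). That of Tjp1 was 0.12 to 0.96. For Cldn12 the interval was -0.17 to 0.51 around 0.17, and for F11r -0.35 to 0.43 around 0.04. The widest were those of Cldn7, -1.05 to 1.59, and Cldn8, -1.01 to 1.13. These intervals hold for the scanner ratios only. In the deposited values the differences were -0.61 for Cldn23 (interval -1.17 to -0.06), 0.58 for Tjp1 (0.15 to 1.002) and 0.76 for Cldn4 (0.07 to 1.46). The deposited intervals of Cldn7 and Cldn8 were -1.24 to 1.56 and -1.18 to 1.72.

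Read channel by channel, the reference signal itself differed between the slides for some of these genes. In Cy3 alone, where every array carried the same commercial pool, Cldn23 was 0.76 ± 0.14 (limma adjusted p = 0.0155) and Ocln 0.45 ± 0.12 (adjusted p = 0.0488) higher on the 4-week arrays, and F11r was at -0.29 ± 0.06, lower on the 4-week arrays (adjusted p = 0.0254). Such calls made up 8.69% of all genes, 6.03% higher and 2.67% lower. Net Cy3 signals of Cldn23 were 139, 148, 149 and 73.5 on the 4-week arrays and 83.5, 65.1, 60.4 and 48.3 on the control arrays. The lowest 4-week net signal, in replicate 4, lay among the controls. In the normalised Cy3 values, on which the call rests, the 4-week arrays (7.15 to 7.83) all lay above the controls (6.64 to 6.97). In Cy5 alone none of the 9 genes was called, beside 0.323% of all genes, and the differences were 0.62 ± 0.27 for Cldn23 (limma adjusted p = 0.306) and 0.30 ± 0.17 for Ocln (adjusted p = 0.409). The differences of their ratios, -0.18 and -0.14, had the opposite sign of both channels, each of which was quantile-normalised on its own, whereas ratios were loess-normalised within arrays.

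**Figure D4:**
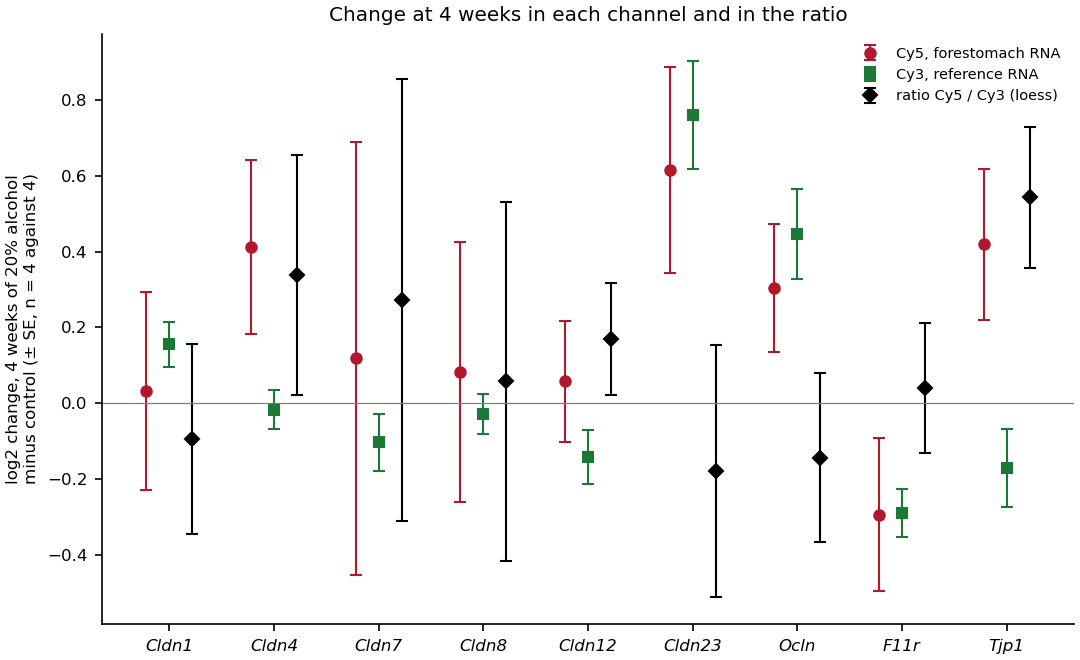
Log2 change (vertical axis, ± SE, 4 against 4 arrays) of each gene at 4 weeks minus control in the forestomach channel (Cy5), the reference channel (Cy3) and the ratio. For Cldn23 and Ocln both channels lie above 0 while the ratio lies below it, and for F11r both channels lie below 0.

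Cldn7 and Cldn8 spread widely within the 4-week and control groups. Cldn7, a basolateral claudin that is abundant in simple epithelia, had ratios of -2.22, -2.46, -2.27 and -2.22 at 40 weeks, -2.91, -0.50, -3.33 and -3.18 at 4 weeks, and -3.38, -3.53, -2.70 and -0.96 in controls. The 40-week samples were close together, while 4-week replicate 2 and control replicate 4 stood 2.64 and 2.24 above the means of the other 3 arrays of their groups. These are both arrays with glandular stomach transcripts. Cldn8 had 2.03, 1.98, 1.25 and 1.32 at 40 weeks, 3.09, 4.58, 2.65 and 1.23 at 4 weeks, and 1.54, 1.78, 3.11 and 4.00 in controls, and the same arrays were the highest of their groups, 2.26 and 1.86 above the others. Cldn8 also spread the other way, with 4-week replicate 4 and control replicate 1 at -2.21 and -1.42 from the others of their groups, so 4-week replicate 2 and control replicate 4 did not stand apart for it by Dixon's criterion. The reference channel of Cldn8 was well above background on 0 of 8 arrays, and its forestomach channel on 6 of 8, the exceptions being 4-week replicate 4 and control replicate 1.

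The other members did not all follow. On 4-week replicate 2 and control replicate 4, F11r stood 0.55 and 0.34 above the other arrays of the group and Cldn12 0.39 and 0.30 above them, while Cldn1 differed from them by -0.58 and -0.49. Cldn18, the claudin of the glandular stomach, is itself among the 15 markers by which these arrays were picked, and it did not pass the detection filter. Its ratios were 4.47 and 5.62 on these arrays. It had 0.66 to 2.01 at 40 weeks and -0.69 to 0.26 on the other 4-week and control arrays. The summed Cy5 signal of the 15 glandular stomach markers was 786 to 2263442 on the 4-week arrays and 1252 to 1608759 on the control arrays, with these arrays highest, and of the simple epithelium markers 5688 to 440280 and 10984 to 312978. Their part in the values of Cldn7 and Cldn8 was not tested.

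Without the 3 organ arrays, 5 members were called against controls and 6 against the 4-week samples, beside 36.2% and 45.5% of all genes. The arrays that remain can still hold transcripts of other organs, since the rule compared arrays within a group only. Cldn7 was then called higher at 40 weeks than in controls, by 1.16 ± 0.15 (limma adjusted p = 0.000493), and than at 4 weeks, by 0.84 ± 0.14 (adjusted p = 0.000938). On all arrays these changes were 0.34 ± 0.64 (adjusted p = 0.692) and 0.18 ± 0.64 (adjusted p = 0.839). Scaled as well, they were 0.08 ± 0.18 (adjusted p = 0.773) and -0.35 ± 0.16 (adjusted p = 0.114), so neither call held once arrays shared 1 spread. At 4 weeks the change without these arrays was 0.37 ± 0.20 (adjusted p = 0.324).

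**Figure D5:**
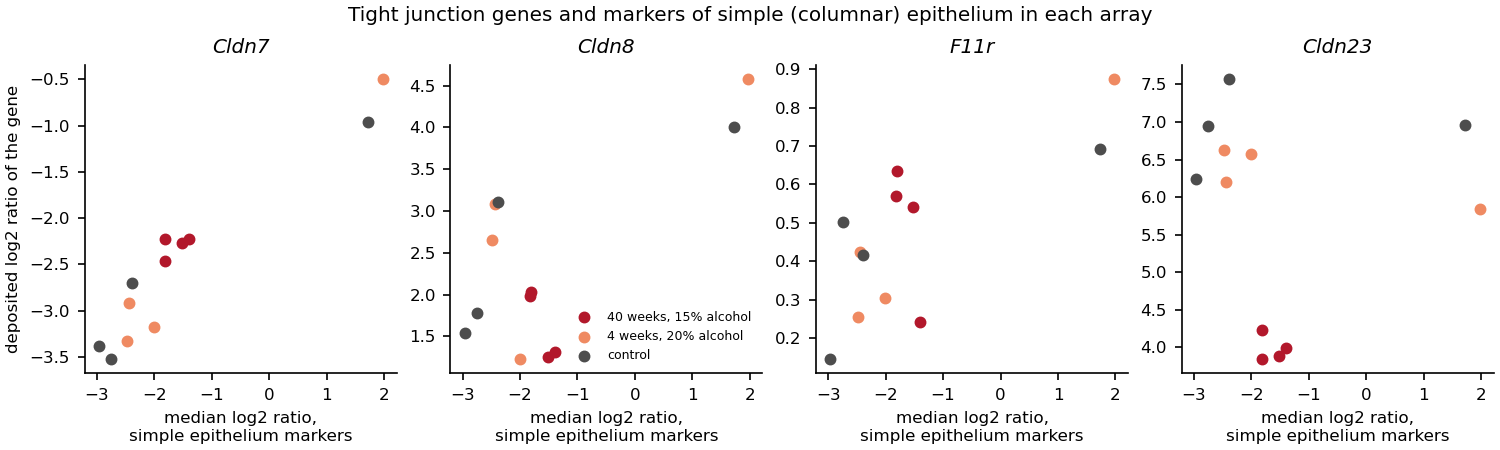
Deposited log2 ratio of Cldn7, Cldn8, F11r and Cldn23 (vertical axes) against the median log2 ratio of 9 simple epithelium markers (horizontal axes) in each of the 12 samples, coloured by group. Control replicate 4 and 4-week replicate 2, at medians of 1.73 and 1.97, have the highest Cldn7 and Cldn8, and not the highest Cldn23.

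Other genes of the tight junction were taken from a list of 53, of which 50 had a probe and 47 were tested. At 4 weeks 0 were called (limma), and the median change was 0.00. The largest changes there were those of the claudin Cldn22 (-0.87 ± 0.36, adjusted p = 0.252), the adhesion protein Cxadr (-0.77 ± 0.27, adjusted p = 0.198) and Tjap1, a tight junction associated protein (0.54 ± 0.13, adjusted p = 0.0804). At 40 weeks 5 were called higher than in controls and 17 lower as deposited, beside the 42.5% of all genes called, and the median change was -0.27, beside -0.09 over all genes. After scaling, 13 were called higher and 9 lower, beside 38.2% of all genes, the median was 0.24, beside -0.03 over all genes, and 10 of the 22 deposited calls were kept in the same direction. Against the 4-week samples 6 were called higher and 20 lower as deposited, beside 41.5% of all genes, and 12 higher and 7 lower after scaling, beside 40.8%, with 9 of the 26 deposited calls kept. Cxadr, an adhesion protein that also serves as a virus receptor, was higher there by 1.504 ± 0.32 as deposited (limma adjusted p = 0.00343) and by 1.57 ± 0.33 after scaling (adjusted p = 0.00307).

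Among the other claudins, Cldn22 fell by 2.29 ± 0.22 at 40 weeks against controls (limma adjusted p = 1.26e-05), and Cldn5, the claudin of endothelium, fell by 1.69 ± 0.21 (adjusted p = 6.70e-05). Cldn3, a claudin of simple epithelia, fell by 1.14 ± 0.31 (adjusted p = 0.0111) and Cldn9 fell by 0.65 ± 0.16 (adjusted p = 0.00759). Scaled, Cldn22, Cldn3 and Cldn9 were still called lower, at -0.83, -0.81 and -0.73, and Cldn5 was at 0.18 (adjusted p = 0.543). Cldn3 had 0.21 to 0.43 at 40 weeks, 0.75 to 1.97 at 4 weeks and 0.97 to 2.27 in controls. Its 40-week values lay below all others. The 3 organ arrays had its highest ratios, 2.27 and 1.73 in control replicates 3 and 4 and 1.97 in 4-week replicate 2. The other control and 4-week arrays had 0.75 to 1.02, and the part of the organ arrays in the fall was not tested.

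Of the membrane proteins outside the claudin family, the endothelial adhesion protein Esam had the largest fall, 2.45 ± 0.17 as deposited (limma adjusted p = 1.46e-06), and was still lower after scaling (-0.999, adjusted p = 0.00401). Its ratios were 2.34 to 2.79 at 40 weeks, 4.23 to 4.85 at 4 weeks and 4.73 to 5.09 in controls. Esam and Cldn5 are also in the endothelial marker list, whose counts stand above. Igsf5, an adhesion protein of gut and kidney epithelia, fell by 2.31 ± 0.72 as deposited (adjusted p = 0.0218) and was at -1.20 after scaling (adjusted p = 0.166). It was also high on the arrays with glandular stomach transcripts, at 5.64 in 4-week replicate 2 and 6.30 in control replicate 4. Lsr, which marks the corners where 3 cells meet, gave -1.09 as deposited (adjusted p = 0.00545) and 0.29 scaled (adjusted p = 0.358), and Jam2, an adhesion molecule, gave -0.41 (adjusted p = 0.00839) and 0.33 (adjusted p = 0.0586), both calls being lost. Ildr2, a relative of Lsr, was 1.24 higher as deposited (limma adjusted p = 0.0112) and at 0.43 after scaling (adjusted p = 0.410).

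Among cytoplasmic partners, cingulin (Cgn) fell by 1.14 (limma adjusted p = 0.00104) and zonula occludens 3 (Tjp3) fell by 0.98 (adjusted p = 0.00128) as deposited. Both calls were lost after scaling, at -0.16 (adjusted p = 0.595) and -0.02 (adjusted p = 0.927). The apical polarity protein Crb3 was called lower as deposited, at -0.71 (adjusted p = 0.00594), and higher after scaling, at 0.92 (adjusted p = 0.00837). The Y-box factor Ybx3, which binds Tjp1 in cultured dog kidney cells, was lower in both, at -1.64 as deposited (limma adjusted p = 0.000127) and -1.38 scaled (adjusted p = 0.000556), and so was the angiomotin relative Amotl1, at -1.19 (adjusted p = 5.08e-05) and -1.25 (adjusted p = 0.000121). Tjap1 and the RNA processing scaffold Sympk were higher in both, at 1.01 and 1.10 as deposited and at 0.51 and 0.84 scaled. Ybx3 had 0.09, 0.42, 0.06 and -0.25 at 40 weeks, 2.31, 1.80, 1.97 and 1.34 at 4 weeks, and 1.80, 1.66, 2.06 and 1.38 in controls, with no overlap of the 40-week samples and the rest.

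For each member, the named genes with the most similar profile over the 12 samples were sought among 17155 named genes, as the smallest root mean square difference of deposited log2 ratios after each gene was centred on its own mean. Nearest to Cldn1 were Mpzl3, a membrane protein of skin and sebaceous glands, at 0.14 and the transporter Slc16a9 at 0.16, where Cldn1 itself varied by 0.96 about its mean. Mpzl3 had 3.38 to 3.91 at 40 weeks, 5.16 to 5.85 at 4 weeks and 5.47 to 6.16 in controls. Nearest to Cldn23 were Pdzd2 and the gastrointestinal calpain Capn9 at 0.17 each, and nearest to Ocln were the potassium channel subunit Kcnmb1 at 0.18 and Tlcd3a at 0.19. Sdsl at 0.22 and Chst11 at 0.28 were nearest to Cldn7. Both were highest on 4-week replicate 2 and control replicate 4, which follows from their being picked for likeness to Cldn7. Cldn4 had Hoxc8 (0.24) and Gp1bb (0.26), and Cldn8 had Chad and Ugt2b34 (0.44 each). The root mean square difference tends to be small for genes that vary little, so its size does not rank the matches of different members. Cldn12, which varied by 0.25 about its mean, had Hmgb3 (0.09) and Polg2 (0.09). Tjp1, which varied by 0.35, had Fam214a (0.11) and Bach2 (0.13), and F11r, which varied by 0.20, had Fh1 (0.10). The points share arrays, slides and the narrower 40-week columns.

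Promoters from RefSeq (GRCm38.p6), the 250 bases before the annotated gene start, are shown for the members that were called lower at 40 weeks than at 4 weeks as deposited and that have an entry. None of these calls held after scaling. Cldn1 lies at chr16:26371840-26372089 (minus), Cldn4 at chr5:134946935-134947184 (minus) and Ocln at chr13:100552719-100552968 (minus), and Cldn23 and Cldn8 are named only. Capitals mark CAGGTG or its reverse complement CACCTG, an E-box bound by Snail-type repressors of epithelial genes. It occurs once in the Cldn4 and once in the F11r promoter and in none of those of Cldn1, Cldn7, Cldn12, Ocln and Tjp1, and 17.1% of 27025 promoters of the same length hold it on either strand. The Grainyhead motif AACNGGTT (1.74% of promoters) and TATAAA (13.0%) occur in none of the 7 member promoters.
Cldn1: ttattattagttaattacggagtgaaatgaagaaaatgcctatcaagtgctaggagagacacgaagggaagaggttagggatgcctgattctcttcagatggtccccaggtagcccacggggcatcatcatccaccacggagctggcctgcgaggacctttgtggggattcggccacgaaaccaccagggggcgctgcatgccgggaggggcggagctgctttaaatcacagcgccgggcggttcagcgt
Cldn4: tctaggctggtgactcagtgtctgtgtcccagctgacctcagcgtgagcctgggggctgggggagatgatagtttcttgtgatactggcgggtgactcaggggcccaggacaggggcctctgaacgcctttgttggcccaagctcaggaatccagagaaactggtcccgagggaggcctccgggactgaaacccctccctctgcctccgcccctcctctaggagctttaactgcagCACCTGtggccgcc
Ocln: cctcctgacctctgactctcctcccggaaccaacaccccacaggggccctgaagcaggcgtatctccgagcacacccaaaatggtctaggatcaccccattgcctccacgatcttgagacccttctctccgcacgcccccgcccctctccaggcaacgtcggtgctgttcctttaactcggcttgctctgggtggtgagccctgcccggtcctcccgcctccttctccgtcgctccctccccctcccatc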

How the data were processed

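The members and gene lists were chosen with earlier results of these data known. Groups come from the sample titles. For the 8 arrays of 4-week and control samples, mean and local background intensity per spot were used, per the file headers of Agilent Feature Extraction (version 10.7.3.1 there, 9.1 in the submitters' processing notes). Signals were corrected with normexp (offset 50) and loess-normalised within arrays, without control and outlier spots. These are the scanner ratios given above. They can be smaller than the deposited values, as for Cldn1 in control replicate 1 (3.51 against 5.13). Flags and the scanner's processed intensity were taken as deposited, and log10 ratios were not used. For all 12 samples the deposited table was used. No source states its scale. Set against log2 ratios of the background-subtracted signals of the 8 arrays, without offset or loess, it had slopes of 0.930 to 0.956. The deposited values of these 8 arrays are thus on a log2 scale, forestomach over reference. No scanner file was at hand to set the 40-week columns against, so the same scale was assumed for them and not checked. Probes with Cy5 well above background on at least 3 of 4 arrays of a group were kept (30453), the brightest in Cy5 standing for its gene, and the named-gene rule took all members, up to 15 called other tight junction genes and the 3 largest changes per comparison, and 2 nearest profiles per member, of which 1 is not reported here. limma 3.58.1 (R 4.3.3; lmFit and eBayes) compared 4-week with control samples on scanner ratios, and the 40-week contrasts in a fit of all 12 deposited columns. Adjusted p-values are Benjamini-Hochberg values over all 20741 genes, or over all kept probes where a single probe is given. Tested on simulated data, limma recovered large changes of known size. The simulated noise was independent and equal for all genes, without slide effects, narrower 40-week columns or organ arrays, so it does not bear on these. The number of arrays limits the precision. Alternatives covered background correction, centring, scaling, filters, single channels, a replicate block and left-out samples.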

Additional observations from a re-analysis of the deposited data

Results flagged for a closer look

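Of 45 groups of 4 samples tested with Dixon's criterion, 2 held a sample far from the other 3, where chance gives about 1 in 20. Cldn7 in 4-week replicate 2, at -0.50 in the deposited ratios, was the highest of its group, on an array with glandular stomach transcripts. Ocln in control replicate 1, at 3.54 in the scanner ratios, was the lowest of its group, with the other 3 controls at 4.27 to 4.34. Neither held in the other version of the same arrays: the gap over the range was 0.852 for Cldn7 in the deposited and 0.768 in the scanner ratios, and 0.907 for Ocln in the scanner and 0.796 in the deposited ratios, the lower value of each pair being under the critical value.

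The changes against control at 40 weeks and at 4 weeks differed in the deposited values for 4 of the 9 genes, tested as the contrast of the alcohol groups in limma. Over all genes 41.5% were called in this contrast, so 4 of 9 is near the background. The difference, 40-week minus 4-week, was -2.33 for Cldn23, -1.88 for Cldn1, -1.53 for Cldn4 and -1.52 for Ocln, all with a limma adjusted p under 0.05. All 4 samples of the 40-week group lay below all 4 of the 4-week group for each of these genes. Groups without overlap, in either direction, were found for 45.3% of all genes. None of the 4 members was called after arrays were scaled to the same spread, beside 40.8% of all genes.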

How the results depend on the processing

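At 4 weeks 228 genes were called (25% of them higher), and 0 tight junction genes, which held under every alternative but the reference channel. The count of genes was 548 with no background correction, 132 with a normexp offset of 16, 726 with the scanner's processed signals (36.8% higher), 269 with no filter (35.3% higher), 476 with array weights, 139 with the deposited values of the 8 arrays, 67 in Cy5 alone (79.1% higher) and 1803 in Cy3 alone (69.3% higher, 3 tight junction genes). With limma it was 0 after median centring (2838 at an unadjusted p under 0.05), 0 with arrays scaled to the same spread (3109), 0 with the replicate block (3793) and 0 without the 3 organ arrays (4573). Leaving out 1 replicate gave 0 to 52 genes and 0 tight junction genes. None of the changes that reversed sign had passed the test: Cldn8 was at -0.11 with no background correction, Cldn1 at 0.070 with an offset of 16 and 0.062 averaged over probes, and F11r at -0.30 after median centring and -0.060 with array weights. Scaled, Cldn1 was at 0.35, Cldn23 at 0.46 and Ocln at 0.27, and without the organ arrays at 0.12, 0.28 and 0.062. In Cy5 alone Cldn1 was at 0.032, Cldn23 at 0.62, Ocln at 0.30 and F11r at -0.29. In Cy3 alone, Cldn1 was at 0.16, Cldn4 at -0.017, Cldn7 at -0.10, Cldn8 at -0.028, Cldn12 at -0.14, Cldn23 at 0.76, Ocln at 0.45, Tjp1 at -0.17 and F11r at -0.29. With 1 replicate left out, the changes ran from -0.25 to 0.15 for Cldn1, -0.23 to 0.73 for Cldn7, -0.34 to 0.37 for Cldn8, -0.48 to 0.092 for Cldn23, -0.33 to 0.0031 for Ocln and -0.10 to 0.12 for F11r.

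Against control at 40 weeks, the scaled values called 2 tight junction genes and turned Cldn4 to 0.25 and Cldn7 to -0.75. Quantile normalisation called 2, with Cldn4 at 0.021, Cldn7 at -0.69 and Ocln at 0.058, and Tjp1 averaged over its probes was at -0.27. Without 40-week replicates 3 and 4, 5042 genes were called. Scaled and without the organ arrays, an alternative chosen after seeing the data, 5305 genes and 1 tight junction gene were called, with Cldn4 at 0.26 and Cldn8 at 0.67. Leaving out 1 replicate gave 7194 to 9240 genes and 3 to 5 tight junction genes, and F11r ran from -0.040 to 0.14. Tjp1 was called without 40-week replicate 4 (0.58, limma adjusted p = 0.0465).

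Against the 4-week samples, scaling called 1 tight junction gene, with Cldn7 at -0.92, Ocln at 0.23 and Tjp1 at 0.61, and quantile normalisation 2, with Cldn7 at -0.81 and Tjp1 at 0.37. Without 40-week replicates 3 and 4, 4658 genes were called and Tjp1 was at 0.10. Scaled and without the organ arrays, 0 tight junction genes were called with limma (2 at an unadjusted p under 0.05), with Cldn7 at -0.35, Cldn8 at 0.17, Ocln at 0.11 and Tjp1 at 0.44. Leaving out 1 replicate gave 7084 to 8204 genes and 4 to 5 tight junction genes, Cldn7 at -0.10 to 0.84, F11r at -0.037 to 0.17 and Tjp1 at -0.28 to 0.00725. Cldn8 was called without 4-week replicate 4 (-1.79, limma adjusted p = 0.0363). The cause of these differences was not tested.

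Samples with the same replicate number did not deviate together in every pair. Correlations were -0.438 to 0.414 between 4-week and control samples and 0.061 to 0.201 between 40-week and control samples. Between 40-week and 4-week samples they were -0.197 to 0.183. So few pairs cannot settle whether the samples are paired, and the labels state no pairing. Same-numbered 4-week and control samples also held the same position on their slides. The replicate block called 8680 genes at 40 weeks against control and 8421 against 4 weeks, with 4 tight junction genes in each. Of the members' changes under all alternatives, 33 of 4 weeks, 9 of 40 weeks against control and 17 of 40 against 4 weeks reversed sign. Cy3 signals not above background limit Cldn8 and the dimmer Ocln probe.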
